A study of Rattus norvegicus with 17 samples.

Results

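The 6 genes described here had the largest differences in mean expression between the hippocampus of Site #3 rats and that of Sites #1 or #2, among genes that kept the Site #3 libraries apart from all others. They were chosen by the measured expression itself, on the log2 scale. They are 6 of the 22664 genes with a value other than 0 in at least 1 library, out of 32494 listed. ENSRNOG00000042985, ENSRNOG00000027971, ENSRNOG00000017820, ENSRNOG00000016164 and ENSRNOG00000037364 were higher at Site #3, and ENSRNOG00000013928 was lower. The files list genes by Ensembl identifier alone, and no table used here paired any of the 6 with a symbol, a function, a position or a sequence, so all are given by identifier.

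The study asked how far untreated hippocampal tissue differs between laboratories that follow nearly the same protocol. Whole hippocampi came from male SAS Sprague Dawley rats that received no experimental intervention, 1 library per rat, with 5 rats at Site #1 (Legacy Research), 6 at Site #2 (Trinity College) and 6 at Site #3 (University of Alabama at Birmingham). Rats of Sites #1 and #2 came from Charles River, arrived at 8.3 weeks of age, were housed singly, were killed from 18 days after arrival and were dissected in saline. Rats of Site #3 came from Envigo (Harlan), arrived at 8.0 weeks of age, were housed in pairs on another chow, were killed 27 days after arrival and were dissected in bubbled artificial cerebrospinal fluid. All of these factors change together at Site #3, so their parts in any difference given here cannot be told apart.

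The hippocampus is a cortical structure needed for forming memories and for finding the way in space. Its principal neurons are pyramidal cells of the CA fields and granule cells of the dentate gyrus, held in check by GABA-releasing interneurons and surrounded by astrocytes, oligodendrocytes, microglia and blood vessels. A library of the whole tissue sums the RNA of all of them, so fewer cells of a type and less RNA per cell cannot be told apart. Sprague Dawley rats are an outbred stock, in which animals of a colony are not genetically identical and colonies of different vendors are bred apart.

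Values are on a log2 scale, already normalized between libraries by the authors, and are given as deposited. A difference of log2 units is a ratio on the linear scale. Read counts cannot be recovered from these values, which leaves the depth of each library unknown. Gene lengths were not at hand, so levels are compared mainly between libraries of a gene. Where genes were matched, summed or filtered by level, their length was not allowed for. The labelled tissue was checked first. All 21 markers of brain and neighbouring cell types that could be matched had values above 0 in every library, among them Grin1, an NMDA receptor subunit of neurons, at 14.43 to 14.69, Neurod6, a transcription factor of pyramidal neurons, at 13.14 to 13.80, and Gfap, the filament protein of astrocytes, at 15.02 to 15.43. Replicate 1 of Site #3 stood apart in F5, listed as a marker of the choroid plexus, with 12.04 beside a Site #2 mean of 5.51. In that library the 5 higher genes stood at 6.74, 6.70, 8.29, 9.27 and 7.77 in the order given above and the lower gene at 7.55, all inside the range of the other Site #3 libraries but for ENSRNOG00000017820, which was highest there. Without that library, the difference of ENSRNOG00000017820 went from 0.73 to 0.69 log2 units against Site #1 and from 0.66 to 0.63 against Site #2, and those of the 5 other genes moved by less.

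ENSRNOG00000042985 was higher at Site #3. At Site #1 its values were 5.89, 5.80, 5.88, 6.28 and 5.93 in replicates 1 to 5. The 6 values of Site #2 ran from 5.80 to 5.93 with a median of 5.88, and those of Site #3 from 6.54 to 6.84 with a median of 6.77. Of the 11 libraries outside Site #3, 10 lay at 5.93 or below, and replicate 4 of Site #1 stood alone between them and Site #3. In order of site the means were 5.96 ± 0.19 (SD, n = 5), 5.87 ± 0.05 (SD, n = 6) and 6.74 ± 0.11 (SD, n = 6). The Site #3 mean exceeded that of Site #1 by 0.79 log2 units (standard error 0.09) and that of Site #2 by 0.87 (standard error 0.05), which are 1.73-fold and 1.83-fold on the linear scale.

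ENSRNOG00000027971 had a step of similar size. Its Site #1 values were 5.86, 6.08, 6.03, 5.89 and 5.88. Site #2 ran from 5.86 to 6.24 with a median of 5.92, and Site #3 from 6.53 to 6.81 with a median of 6.74. Here the library outside Site #3 that came nearest was replicate 4 of Site #2, and the lowest Site #3 library was replicate 2. Means were 5.95 ± 0.10 (SD, n = 5), 5.97 ± 0.14 (SD, n = 6) and 6.72 ± 0.11 (SD, n = 6), so Site #3 was 1.70-fold the level of Site #1 and 1.68-fold that of Site #2.

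ENSRNOG00000017820 showed the cleanest separation of the 6 genes by the empty space beside its spread. Its Site #1 values were 7.42, 7.38, 7.44, 7.25 and 7.48. Those of Site #2 ran from 7.37 to 7.58 with a median of 7.45, and those of Site #3 from 8.03 to 8.29 with a median of 8.10. No library lay in the 0.44 log2 units between replicate 3 of Site #2 and replicate 5 of Site #3, a gap of 4.90 times the pooled SD within sites. Means were 7.40 ± 0.09 (SD, n = 5), 7.46 ± 0.07 (SD, n = 6) and 8.12 ± 0.11 (SD, n = 6). Site #3 was higher by 0.73 log2 units (standard error 0.06) than Site #1 and by 0.66 (standard error 0.05) than Site #2.

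ENSRNOG00000016164 was spread more widely inside each site. At Site #1 it was 8.62, 8.76, 8.32, 8.87 and 8.46. At Site #2 it ran from 8.40 to 8.73 with a median of 8.57, and at Site #3 from 9.12 to 9.50 with a median of 9.29. The highest library outside Site #3 was again replicate 4 of Site #1, 0.25 below the lowest of Site #3. Means were 8.61 ± 0.22 (SD, n = 5), 8.57 ± 0.13 (SD, n = 6) and 9.29 ± 0.13 (SD, n = 6), and Site #3 was 1.61-fold the level of Site #1 and 1.65-fold that of Site #2.

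ENSRNOG00000037364 had the largest difference from Site #2 and the least clear border. Its Site #1 values were 7.30, 7.29, 7.08, 6.44 and 6.43. Site #2 ran from 6.40 to 7.32 with a median of 6.75, and Site #3 from 7.41 to 7.88 with a median of 7.74. The widest empty interval was not the one that bounds Site #3 but one of 0.63 log2 units inside Sites #1 and #2. Below it lay 5 libraries, 2 of Site #1 and 3 of Site #2, within 0.04 of each other at 6.40 to 6.44. Above it lay the other 6 libraries of these sites, 3 of each, at 7.07 to 7.32. The border with Site #3 was 0.09 wide, between replicate 4 of Site #2 at 7.32 and replicate 5 of Site #3 at 7.41, and the other 5 Site #3 libraries began at 7.71. Means were 6.91 ± 0.44 (SD, n = 5), 6.81 ± 0.43 (SD, n = 6) and 7.72 ± 0.17 (SD, n = 6), so that the difference of 0.82 log2 units (standard error 0.17) from Site #1 and of 0.91 (standard error 0.17) from Site #2 averages over both levels of these sites. In none of the 5 other genes were the 5 libraries of the low level apart from the 6 of the high one.

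ENSRNOG00000013928 was the one gene of the 6 that was lower at Site #3. Its Site #1 values were 8.19, 8.14, 8.54, 7.86 and 8.24. Site #2 ran from 8.09 to 8.69 with a median of 8.27, and Site #3 from 7.30 to 7.66 with a median of 7.44. The lowest library outside Site #3 was replicate 4 of Site #1 and the highest of Site #3 was replicate 5, 0.21 log2 units apart. Means were 8.19 ± 0.24 (SD, n = 5), 8.34 ± 0.23 (SD, n = 6) and 7.45 ± 0.15 (SD, n = 6), which put Site #3 at 0.596 times the linear level of Site #1 and 0.537 times that of Site #2.

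**Figure D1:**
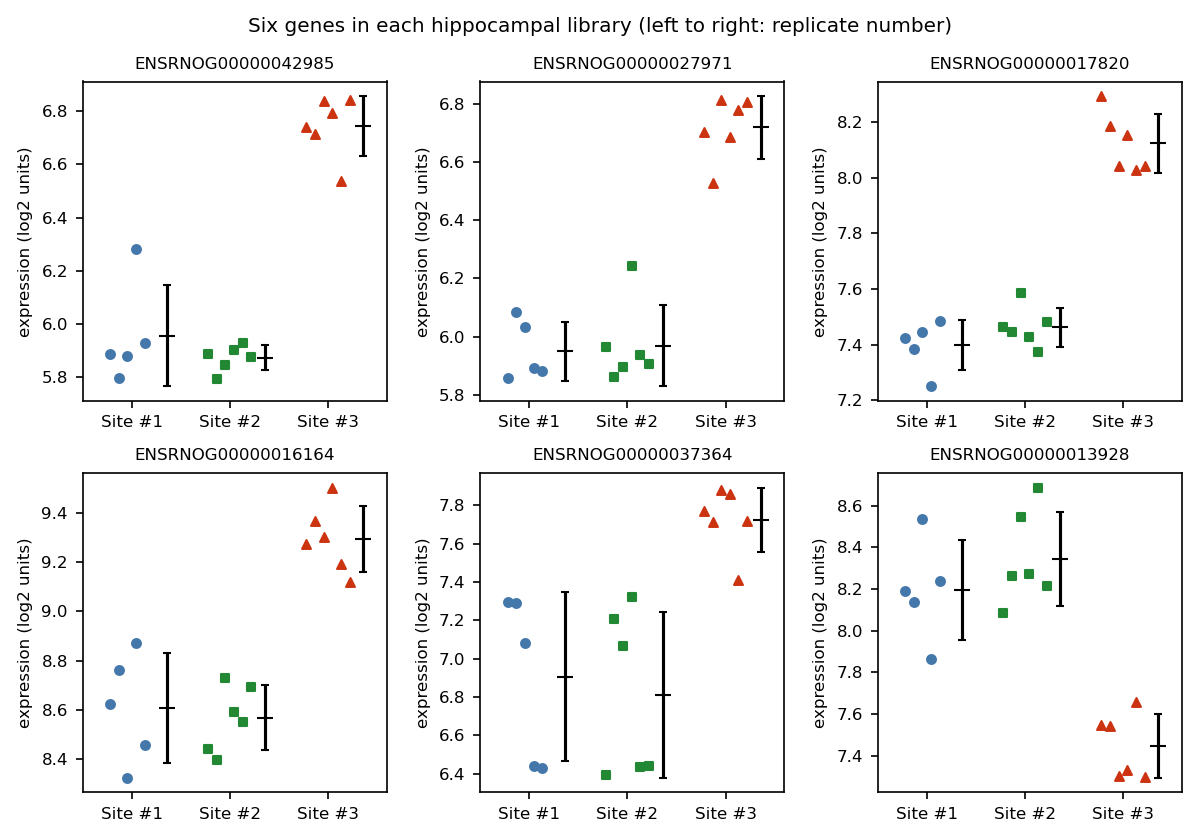
Expression of the 6 genes in each of the 17 libraries, with log2 units on the vertical axis of each panel and the sites on the horizontal axis. Points are rats in order of replicate number, and bars are the mean ± SD of a site. Site #3 lies apart in every panel, and ENSRNOG00000037364 has 5 libraries of Sites #1 and #2 near 6.40 to 6.44 and 6 at 7.07 or above.

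Because the members were picked for a lack of overlap, that property is a description of the choice and carries no test. All 5 higher genes lay above the other 11 libraries, as did 0.172% of the 22664 genes, and the lower gene lay below them, as did 0.172% also (39 genes each way). After median centring of the libraries the same counts were 19 higher and 35 lower. Against Site #1 alone, 0.587% of genes were higher and 0.79% lower without overlap. Against Site #2 alone, 0.931% were higher and 1.02% lower.

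The 78 genes that separated Site #3 from all other libraries were ordered by the larger of their 2 absolute differences. The members took ranks 1 to 6, from 0.91 log2 units for ENSRNOG00000037364 down to 0.72 for ENSRNOG00000016164. The next gene, which has no symbol in the tables used here, was lower at Site #3 by 0.67, and Apoc1, an apolipoprotein of lipid transport, followed at 0.62. Over the 72 other genes the median was 0.22 and the smallest 0.01. A gene outside the members had a larger difference, of 1.92 between Site #3 and 1 of the 2 other sites, but its libraries of the remaining site overlapped Site #3.

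**Figure D2:**
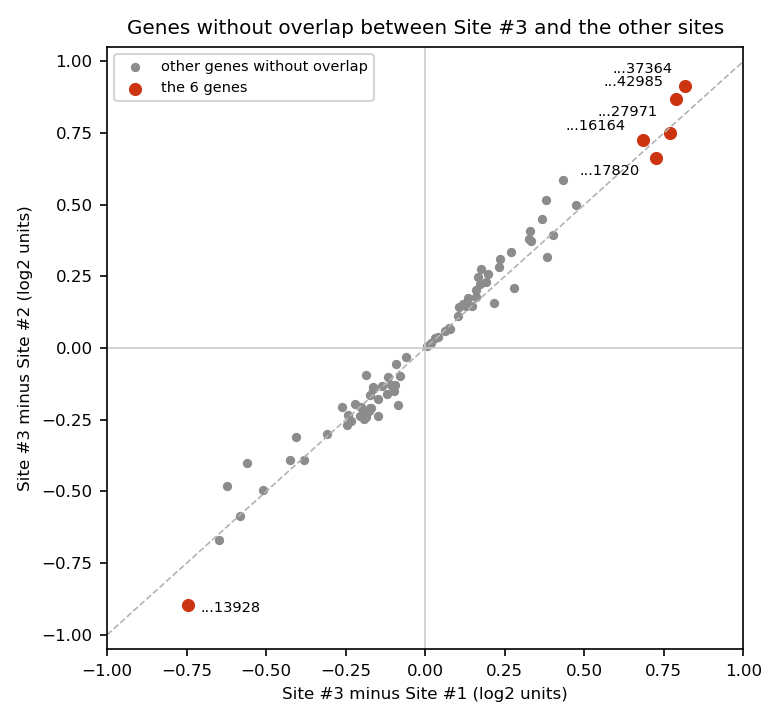
Difference of the Site #3 mean from the Site #1 mean (horizontal axis) and from the Site #2 mean (vertical axis), both in log2 units, for the 78 genes whose Site #3 libraries did not overlap the other 11. Red points are the 6 genes with the last digits of their identifiers, grey points the 72 others, and the dashed line marks equal differences; 5 of the 6 lie at the upper right end and ENSRNOG00000013928 at the lower left.

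The shapes of the steps differed among the 6 genes. In ENSRNOG00000027971, ENSRNOG00000017820 and ENSRNOG00000016164 the widest interval without a library fell between the 11 libraries of Sites #1 and #2 and the 6 of Site #3, at 0.28, 0.44 and 0.25 log2 units. In ENSRNOG00000042985 it fell just below replicate 4 of Site #1, at 0.35, with 0.26 more before the first Site #3 library. In ENSRNOG00000013928 it fell above 14 libraries, at 0.27, inside Sites #1 and #2, so its values were graded rather than split at the site border. The share of the sum of squares that lay between Site #3 and the rest was 93.7% for ENSRNOG00000017820, 91.9% for both ENSRNOG00000042985 and ENSRNOG00000027971, 83.6% for ENSRNOG00000016164, 80.0% for ENSRNOG00000013928 and 61.0% for ENSRNOG00000037364. These shares use the values that chose the genes and are descriptions.

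**Figure D3:**
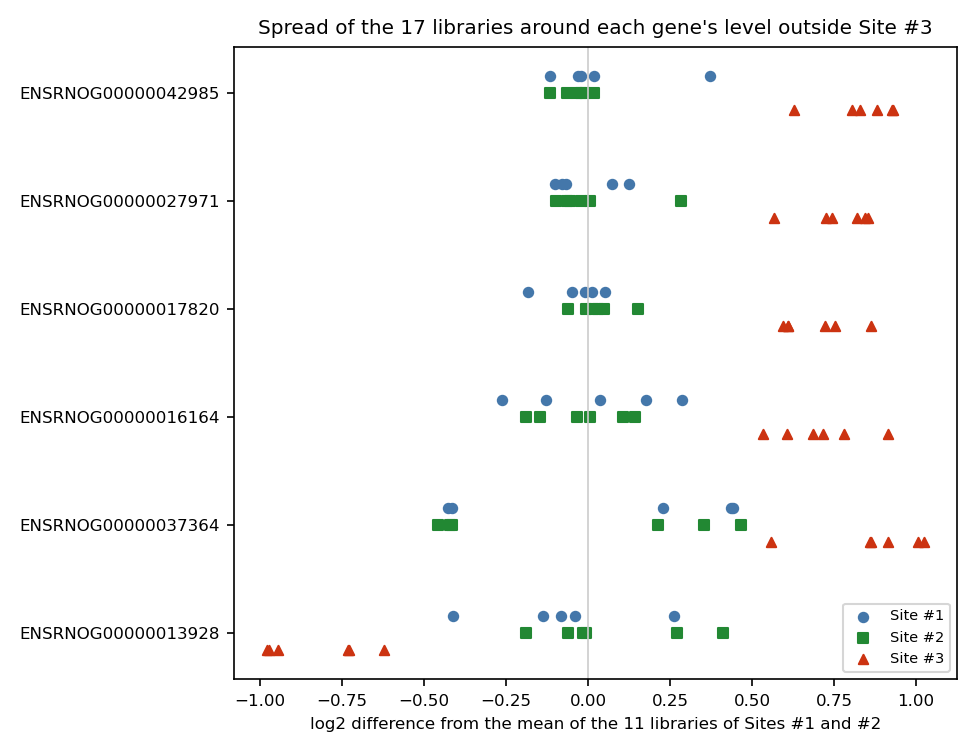
Values of the 17 libraries for each gene, as the log2 difference from the mean of the 11 libraries of Sites #1 and #2 (horizontal axis), with one row of points per site and gene. The Site #3 triangles stand clear of the other points by 0.44 in ENSRNOG00000017820 and by only 0.09 in ENSRNOG00000037364, whose other libraries fall on either side of a space of 0.63.

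Within sites, 2 of the genes varied far more than genes of like level. The pooled within-site SD of ENSRNOG00000037364 was 0.364, where the 1204 genes with a mean within 0.5 log2 units of it had a median SD of 0.104. For ENSRNOG00000013928 it was 0.208, against a median of 0.105 for 1466 such genes. ENSRNOG00000016164 had 0.164 against 0.0975. The other genes were nearer to their neighbours in level, with 0.125 against 0.0935 for ENSRNOG00000042985, 0.118 against 0.0938 for ENSRNOG00000027971 and 0.0903 against 0.105 for ENSRNOG00000017820.

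Sites #1 and #2 share the animal vendor, the chow, single housing and the dissection buffer, though not the cages or bedding. Their contrast was tested, as the choice did not rank genes by it. The choice did require both sites to lie on the same side of Site #3, without overlap. That can leave out genes that differ much between Sites #1 and #2, so for the members the test is not independent of the choice. None of the 6 genes passed, and neither did any of the 22664 genes (0%, smallest adjusted p = 0.227, limma with Benjamini-Hochberg adjustment). An unadjusted p under 0.05 was reached by 1527 genes, or 6.74% (limma). The paper, with DESeq2 on read counts, did report genes that differed between these sites, so the 0% holds for limma on the deposited values. Among the members the smallest adjusted p was 0.819, for ENSRNOG00000017820, at a difference of 0.07 log2 units, Site #2 minus Site #1 (95% interval -0.04 to 0.17, limma). The widest interval was that of ENSRNOG00000037364, with a difference of -0.10 (-0.61 to 0.42, limma adjusted p = 0.924). For ENSRNOG00000042985 the difference was -0.08 (-0.24 to 0.08), for ENSRNOG00000027971 0.02 (-0.14 to 0.17), for ENSRNOG00000016164 -0.04 (-0.26 to 0.17) and for ENSRNOG00000013928 0.15 (-0.13 to 0.43). For each of the 6 genes the interval held no value as large in size as that gene's difference at Site #3 from either site. Those Site #3 differences were chosen for their size, so this comparison is a description and carries no test.

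The order of the rats inside a site was not used by the choice. Covariation among the 6 genes was tested there over the 15 pairs in each of Sites #2 and #3. At Site #2 no pair had an unadjusted p under 0.05, with Pearson's r from -0.51 to 0.54 (exact permutation test). At Site #3, 3 pairs did, all among ENSRNOG00000042985, ENSRNOG00000037364 and ENSRNOG00000013928, and none passed Benjamini-Hochberg adjustment over the 30 relations (smallest adjusted p = 0.125, exact permutation test). With 720 orders of 6 libraries, a lone pair could pass that adjustment only if its order was the most extreme of all. The lack of a pass therefore cannot decide whether the genes vary together. The strongest of the 3 pairs was ENSRNOG00000042985 with ENSRNOG00000013928, at r = -0.91 (n = 6, two-sided exact permutation p = 0.00417) and Spearman's rho = -0.94 (exact permutation p = 0.0167). The r was -0.95 without the 2 libraries farthest from the median of ENSRNOG00000042985, and it ran from -0.96 to -0.89 as each library was left out. At Site #2 the same pair had r = 0.27 (exact permutation p = 0.621). Whether the relation differs between the sites was not tested.

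The relation of ENSRNOG00000042985 with ENSRNOG00000037364 at Site #3 had r = 0.89 (n = 6, exact permutation p = 0.0319, adjusted p = 0.444) and rho = 0.66 (exact permutation p = 0.175). Without replicate 5 of Site #3 it was 0.41. Without both replicates 5 and 6, the 2 libraries farthest from the median of ENSRNOG00000042985, it was 0.97. ENSRNOG00000037364 and ENSRNOG00000013928 had r = -0.75 (exact permutation p = 0.0444, adjusted p = 0.444) and rho = -0.54 (exact permutation p = 0.297), which was -0.30 without the 2 farthest libraries and -0.49 without replicate 5. Both values of r were thus smaller in size without replicate 5 alone, but the first was not once replicate 6 was left out as well.

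**Figure D4:**
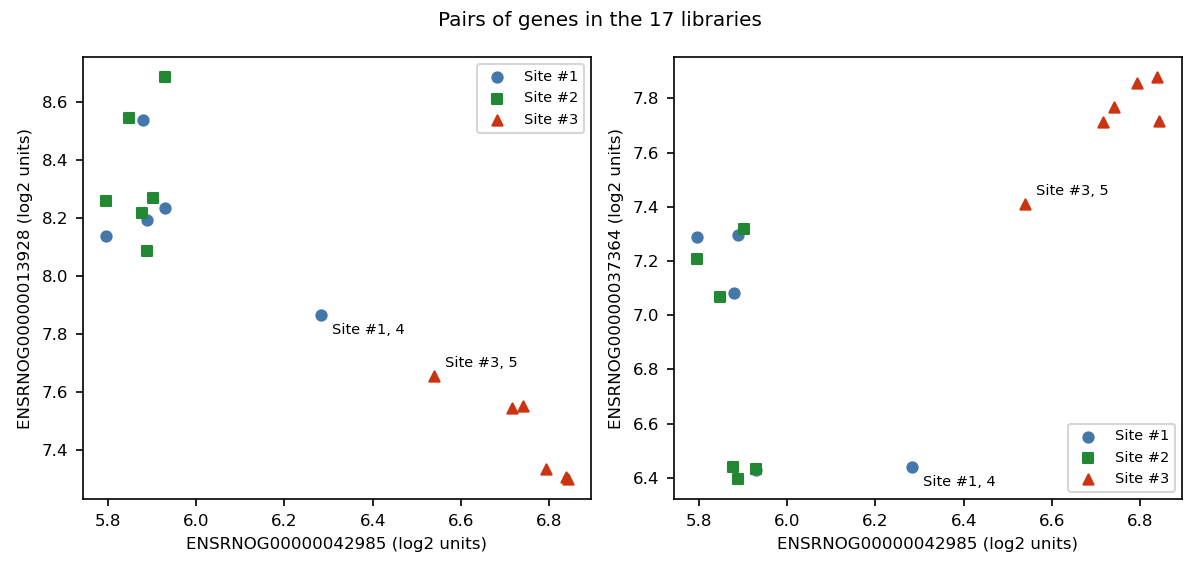
Expression of ENSRNOG00000013928 (left) and ENSRNOG00000037364 (right) against ENSRNOG00000042985 in the 17 libraries, in log2 units, with the site shown by colour and shape. In the left panel the Site #3 triangles fall along a descending line (r = -0.91) and replicate 4 of Site #1 lies between the sites, while in the right panel replicate 5 of Site #3 lies apart from the 5 other triangles.

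The same few rats stood at the border in several genes. Replicate 5 of Site #3 was the Site #3 library nearest the others in 4 of the 6 genes, at 6.54 for ENSRNOG00000042985, 8.03 for ENSRNOG00000017820, 7.41 for ENSRNOG00000037364 and 7.66 for ENSRNOG00000013928. In ENSRNOG00000027971 it was among the higher Site #3 libraries, at 6.78. Replicate 4 of Site #1 was the outside library nearest Site #3 in 3 genes, at 6.28 for ENSRNOG00000042985, 8.87 for ENSRNOG00000016164 and 7.86 for ENSRNOG00000013928. In ENSRNOG00000017820 and ENSRNOG00000037364 it was instead on the far side, at 7.25 and 6.44. Replicate 4 of Site #2 was nearest in 2 genes, at 6.24 for ENSRNOG00000027971 and 7.32 for ENSRNOG00000037364. These libraries were picked out after their values were seen.

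No list of cell type markers kept Site #3 apart from all 11 other libraries, but the neuronal list kept it apart from Site #1. The summed level of the 6 microglial markers, back on a log2 scale, ran from 12.83 to 13.10 at Site #1, from 12.71 to 13.03 at Site #2 and from 13.01 to 13.14 at Site #3. That of the 5 genes the paper lists for astrocytes, Pdgfrb among them, ran from 16.48 to 16.65, 16.37 to 16.56 and 16.48 to 16.69. The sum of the 4 neuronal markers ran from 16.11 to 16.22, 16.03 to 16.12 and 16.01 to 16.11. Every Site #3 library was below every Site #1 library in the neuronal sum, narrowly (16.1058 for the highest of Site #3 and 16.1063 for the lowest of Site #1), while Sites #2 and #3 overlapped. The part of this in the differences of the 6 genes between Sites #1 and #3 was not tested. The lists of oligodendrocytes (1 of 4 markers found), hippocampal neurons (1 of 4), endothelium (1 of 3), choroid plexus (2 of 5) and meninges and fibroblasts (1 of 4) also overlapped between Site #3 and the 11 other libraries, and none of the 3 blood markers was matched. In replicate 5 of Site #3 the astrocyte sum, at 16.69, was the highest and the neuronal sum, at 16.01, the lowest of all libraries, and Col1a1, the main fibrillar collagen of meninges, was lowest at 8.53. The part of cell makeup in the position of that library among the 6 genes was not tested.

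Among the 954 expressed genes that could be given a symbol, the 3 nearest to each member were mostly genes lower at Site #3. Nearness was the absolute Pearson's r over all 17 libraries, and a negative r means levels that ran opposite to the member's. Symbols came from the paper's marker list and its lists of genes differentially methylated between Site #1 and the other sites. The 954 are therefore not a neutral sample of all genes. These r values describe libraries that share 3 sites and carry no p. P2rx4, an ATP-gated cation channel, had r = -0.84 with ENSRNOG00000027971, -0.85 with ENSRNOG00000017820 and -0.69 with ENSRNOG00000037364, and site means of 9.55, 9.46 and 9.15 in order of site. Apoc1 had r = -0.87 with ENSRNOG00000017820 and -0.81 with ENSRNOG00000027971, at site means of 9.26, 9.12 and 8.64. Once each site's mean was taken away, these relations shrank to between -0.25 and 0.06.

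For ENSRNOG00000042985 the nearest were Vps8, a subunit of an endosomal tethering complex (r = -0.85), Lmf1, a factor for lipase maturation in the endoplasmic reticulum (-0.82), and Prrt2, a presynaptic protein (-0.80). Among deviations from the site means these were -0.32, -0.37 and -0.46. Lmf1 came first for ENSRNOG00000016164 as well, with r = -0.87, and this relation was -0.60 among deviations from the site means. Zfp94, a zinc finger gene, had r = -0.78 with it, and -0.29 among deviations. Dusp5, a phosphatase that acts on ERK in the nucleus, was the gene most like ENSRNOG00000013928 in mirror image, at r = -0.85 over all libraries and -0.61 among deviations. Vps8 and Lmf1 followed for that gene with 0.79 and 0.78, and had 0.20 and 0.25 among deviations.

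Poc1b, a centriolar protein, was nearest to ENSRNOG00000037364, with r = 0.74, and kept 0.68 among deviations from the site means. The remaining places were held by AABR07001591.1, with r = 0.81, 0.80 and 0.69 for ENSRNOG00000017820, ENSRNOG00000016164 and ENSRNOG00000037364, and Fam53b, with 0.76 for ENSRNOG00000027971. Among deviations AABR07001591.1 had 0.13, 0.34 and 0.22 with the same genes, and Fam53b had 0.40. Over all 22664 genes, with or without a symbol, an absolute r of at least 0.9 was reached by 6 genes for ENSRNOG00000042985, of which 3 were other members. It was reached by 7 for ENSRNOG00000027971 (2 of them members), 6 for ENSRNOG00000017820 (1 member) and 4 for ENSRNOG00000013928 (1 member). For ENSRNOG00000016164 it was reached by 1 gene, a member, and for ENSRNOG00000037364 by 0. All members were chosen for the same separation of Site #3, which raises the r between them, so these counts are descriptions.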

How the data were processed

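RNA-Seq values of 17 hippocampal libraries were used, 1 per rat, with groups and replicate numbers taken from the sample titles. The authors used Trimmomatic for trimming, HISAT2 for alignment to rn6, featureCounts for counting per Ensembl gene and DESeq2; versions are not given in the sources used here. They deposited 1 log2 value per gene and library, between -2.28 and 20.22, normalized by a step that is not named. Normalization of this kind can compress low genes, so differences may be understated. No counts are held, so the depth of each library and counting intervals are unknown. Nothing says how the RNA of each rat was batched.

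Of 32494 genes, the 9830 with a value of 0 in every library were not tested. Limma (3.58.1, R 4.3.3; lmFit and eBayes with trend, two-sided, Benjamini-Hochberg over all genes, threshold 0.05) compared Sites #1 and #2 and gave the standard errors of the Site #3 differences, which were not tested because they chose the members. Correlations within a site used exact permutation over 720 orders (Python 3.11.15, numpy 2.4.6, pandas 2.3.3, scipy 1.17.1, matplotlib 3.10.9). Both scripts were tested on simulated data. Genes were counted as expressed where the back-transformed values, scaled to CPM in each library, averaged at least 1. The named genes are the 6 members, the matched cell type markers, the 3 genes with symbols and the largest absolute r for each member, and the gene next in rank. Apoc1 was added to these after its rank was seen. Symbols came from the marker list and the lists of differentially methylated genes of the study (1798 identifiers, 1436 tested). The methylation lists were for Site #1 against Sites #2 and #3 and were in part shortened. Other tables were not used here, and the RefSeq tables held no Ensembl identifiers. The members and lists were chosen with earlier results of these data known. Alternatives were median centring, quantile normalization, a CPM filter, a replicate block, array weights, no trend, all libraries in 1 fit, the linear scale and leaving out each library.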

Additional observations from a re-analysis of the deposited data

Results flagged for a closer look

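In 18 groups of 5 or 6 libraries (6 genes, 3 sites), 3 held a library far from the rest by Dixon's criterion, where chance flags about 1 in 20. ENSRNOG00000042985 was 6.28 in replicate 4 of Site #1, with the next library at 5.93. ENSRNOG00000027971 was 6.24 in replicate 4 of Site #2, with the next at 5.96. ENSRNOG00000037364 was 7.41 in replicate 5 of Site #3, with the next at 7.71. The first 2 lay on the side toward Site #3 and the last on the side toward Sites #1 and #2.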

How the results depend on the processing

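The direction of the Site #3 differences follows from how the members were chosen. Over the settings run, their size moved by less than the SD between libraries and ran from 0.61 to 1.02 log2 units for the 5 higher genes and from -0.95 to -0.66 for ENSRNOG00000013928. Between Sites #1 and #2 no member passed under any setting, and the smallest adjusted p was 0.614 (limma). Small differences there (Site #2 minus Site #1) changed sign. With array weights, that of ENSRNOG00000027971 became -0.0292. As each library was left out, ENSRNOG00000042985 ran from -0.122 to 0.000136 and ENSRNOG00000016164 from -0.112 to 0.0256, both highest without replicate 4 of Site #1. ENSRNOG00000037364 ran from -0.216 to 0.000624, highest without replicate 1 of Site #1. ENSRNOG00000027971 ran from -0.0364 without replicate 4 of Site #2 to 0.0521, and was -0.00431 without replicate 1 of Site #1. The count of genes that passed between these sites was 0 to 1 as each library was left out, with 1 gene without replicate 5 of Site #1 or replicate 1 of Site #2. Genes without overlap at Site #3 numbered 42 to 64 higher and 39 to 70 lower as each library was left out, most without replicate 3 of Site #3 and replicate 1 of Site #2, and also rose to 60 and 65 lower without replicates 1 and 4 of Site #3; fewer libraries make overlap less likely. Median centring left 19 higher; the cause was not tested. Libraries with the same replicate number are different rats, and their deviations correlated from -0.46 to 0.39 across genes for Sites #1 and #2. With the replicate block 0 genes passed between these sites, as without it, and ENSRNOG00000013928 had a difference of 0.18 (limma adjusted p = 0.805). The replicate block was not run for Site #3, whose differences were not tested. Without counts, depth cannot be weighed.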
